A study of Mus musculus with 4 samples.

Results

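The germline and meiosis genes were 40 genes chosen by symbol from the 24054 genes counted in each library. No measured value was part of the rule, but earlier results of these data were known when the list was made. They comprised 7 germ cell regulators, 13 genes of the piRNA pathway and its cytoplasmic granule (the nuage), 9 genes of the meiotic chromosome axis, cohesin and synaptonemal complex, 6 genes of meiotic recombination, and 5 germline copies of housekeeping genes or other testis genes. All 40 were found in the count tables, and all 40 were placed on GRCm38.p6 (mm10) by RefSeq.

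Germline genes are transcribed in germ cells and are kept silent in most other cells. In mouse ES cells many of them carry DNA methylation on CpG-rich promoters, or are held down by a variant Polycomb complex in which MGA with MAX recognises the E-box CACGTG and E2F6 recognises E2F motifs. Their products license germ cell fate, guard the genome against transposons through piRNAs, and build the chromosome axes on which meiotic recombination takes place.

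The series profiled total RNA, depleted of ribosomal RNA, from feeder-independent mouse ES cells grown on gelatin in serum with LIF. Morc3 is a GHKL ATPase that the study examined as a silencer of endogenous retroviruses. The wild type was 1 culture of the line wt26, labelled as passage 46, and the Morc3 rescue group was 3 clones, T131-3C, T131-3D and T131-3M, called 3C, 3D and 3M here. All clones came from 1 Morc3 knock-out (ko) line, itself derived from wt26, into which a Morc3 construct had been introduced by PiggyBac transposition with puromycin selection. The clones thus share a parental ko clone and a selection that the wild type did not pass through, and the ko line itself is not analysed here. With 1 wild-type library, genotype and culture cannot be told apart, and p-values measure the spread among these 3 clones, with the wild type assumed to vary like them.

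Reads assigned to genes numbered 18789457 in the wild type, and the clones had from 13620914 to 15479190. Morc3 stood at 161 CPM (counts per 1e6 counts in all, scaled by the TMM method of edgeR) in the wild type and at 655, 497 and 609 CPM in 3C, 3D and 3M, so it was above the wild type in 3 of 3 clones. The ES cell markers summed to 5095 CPM in the wild type and to between 5314 and 5858 CPM in the clones, with all 10 tested and 0 called by edgeR or DESeq2. Of the 10, 5 were above the wild type in every clone, 1 was below, and 4 overlapped. Over all genes, 28.7% were above and 28.4% below. At an unadjusted p under 0.05 in edgeR, 2 markers were higher and 0 lower, against 5.92% and 4.42% of all genes. Nanog and Tfcp2l1 had log2 fold changes of 0.54 (SE 0.17) and 0.25 (SE 0.13), and Pou5f1 one of −0.08 (SE 0.07), and Nanog was called when 3D was left out (adjusted p = 0.000125 in edgeR). Of 14 markers of 2-cell-like cells, 11 had no read in any library, Zscan4c, Tcstv1 and Zfp352 among them.

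Promoter sequences are shown because they can hold the letters bound by the Polycomb recruiters. The choice of members did not read these letters. Many germline genes are held down by these recruiters, however, so the shares below are not independent of the list. RefSeq windows of 300 bases, from 250 before to 50 after a start, were at hand for 33 of the 40 members. Dppa3, Mcmdc2, Meiob, Mybl1, Piwil2, Spo11 and Tdrd6 had none. CACGTG, which reads the same on both strands, occurred in the windows of 14 of the 33 members (42.4%), against 8.09% of all 27025 genes with a window and 12.02% of the 9855 such genes that were expressed enough to test. The E2F-like letters GCGGGA, or TCCCGC on the other strand, occurred in 15 members (45.5%), against 22.0% of all genes and 41.0% of tested genes. Both motifs, which can share a base where they adjoin, were found in 7 members (21.2%), against 2.65% and 5.42%. The members' windows held a median of 19 CpG pairs, against 8 over all genes and 22 over tested genes. The like set for the tested genes is the 23 tested members with a window. Their shares were 34.8% for CACGTG, 47.8% for the E2F-like letters and 17.4% for both, with a median of 18 CpG pairs. A match describes letters in a window and shows no binding.

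The 120 bases before the start are given below for 6 members with an E-box, from RefSeq on GRCm38.p6, each 5′ to 3′ toward its gene, with CACGTG and GCGGGA in capitals. Sycp3, Hormad1 and Fkbp6 each had a pair of E-boxes in this stretch.
Ddx4, chr13:112652311-112652430, minus strand: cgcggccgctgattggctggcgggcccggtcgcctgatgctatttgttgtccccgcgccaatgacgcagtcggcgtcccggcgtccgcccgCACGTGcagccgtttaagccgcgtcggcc
Stk31, chr6:49395419-49395538, plus strand: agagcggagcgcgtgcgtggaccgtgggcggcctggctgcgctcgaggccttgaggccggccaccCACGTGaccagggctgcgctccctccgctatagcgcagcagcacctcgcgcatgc
Sycp3, chr10:88459467-88459586, plus strand: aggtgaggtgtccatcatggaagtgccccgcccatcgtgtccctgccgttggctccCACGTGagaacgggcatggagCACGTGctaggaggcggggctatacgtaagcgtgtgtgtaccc
Hormad1, chr3:95559557-95559676, plus strand: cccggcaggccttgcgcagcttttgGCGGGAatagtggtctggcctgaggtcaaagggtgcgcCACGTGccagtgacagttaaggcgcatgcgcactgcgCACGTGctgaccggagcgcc
Fkbp6, chr5:135350045-135350164, minus strand: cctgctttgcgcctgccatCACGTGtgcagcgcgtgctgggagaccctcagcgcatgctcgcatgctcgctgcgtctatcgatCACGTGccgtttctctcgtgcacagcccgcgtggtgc
Slc25a31, chr3:40708751-40708870, plus strand: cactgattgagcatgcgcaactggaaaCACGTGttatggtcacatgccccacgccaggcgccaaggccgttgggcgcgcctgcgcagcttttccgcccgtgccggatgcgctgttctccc

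For 4 members without an E-box, capitals mark TCCCGC or GCGGGA in the same stretch.
Dmc1, chr15:79605110-79605229, minus strand: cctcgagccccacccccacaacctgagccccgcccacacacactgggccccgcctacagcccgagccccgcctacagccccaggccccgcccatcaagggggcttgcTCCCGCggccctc
Smc1b, chr15:85131958-85132077, minus strand: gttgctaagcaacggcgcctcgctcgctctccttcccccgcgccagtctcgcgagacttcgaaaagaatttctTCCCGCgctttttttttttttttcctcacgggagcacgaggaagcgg
Rec8, chr14:55618046-55618165, plus strand: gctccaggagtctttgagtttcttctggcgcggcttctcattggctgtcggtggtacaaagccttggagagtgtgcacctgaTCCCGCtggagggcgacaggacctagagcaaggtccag
Tex19.1, chr11:121146023-121146142, plus strand: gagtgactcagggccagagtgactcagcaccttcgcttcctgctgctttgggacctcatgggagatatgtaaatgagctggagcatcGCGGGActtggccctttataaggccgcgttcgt

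In Ddx4 the E-box began 29 bases before the start, and in Dmc1 the E2F-like match began 13 bases before it. Per kb of exon, the wild-type level had a median of 0.425 CPM per kb in the 14 members with an E-box and 0.903 CPM per kb in the 19 without. Both sets ran from 0 to 12.8 CPM per kb. For the E2F-like letters the medians lay the other way, at 0.996 CPM per kb in the 15 members with them and 0.167 CPM per kb in the 18 without. Stag3 and Ddx4, both with an E-box, were among the 5 highest members, while Fkbp6 and Brdt, also with one, had at most 4 reads in any library.

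**Figure D1:**
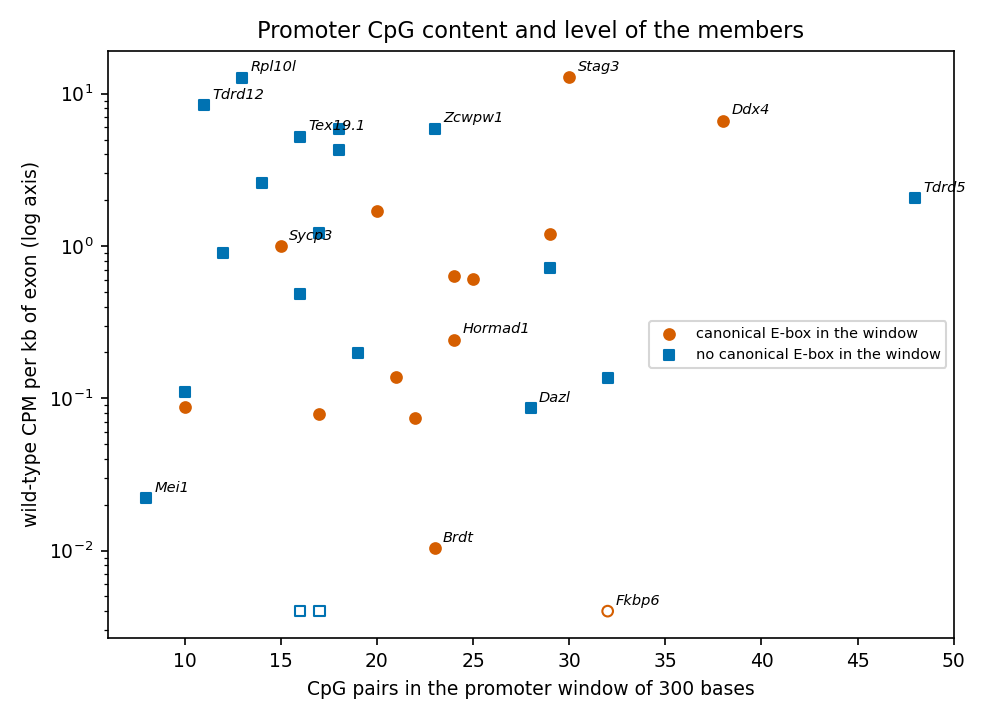
Wild-type level (CPM per kb of exon, log axis) against the number of CpG pairs in the promoter window for the 33 members with a window. Circles hold the canonical E-box and squares do not, open symbols at the bottom are members with no wild-type read, and both kinds of symbol span the full range of levels.

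Most members were low in every library. In the wild type, 8 members reached 10 CPM or more, 15 lay between 1 and 10 CPM, 13 were under 1 CPM with at least 1 read, and 4 had no read (Asz1, Fkbp6, Spo11 and Tuba3b). Members with a read numbered 36 in the wild type and 37, 35 and 36 in 3C, 3D and 3M. The members together summed to 277 CPM in the wild type, 214 CPM in 3C, 242 CPM in 3D and 285 CPM in 3M, and the top 3 members made up between 42.5% and 49.6% of each sum. 3C and 3D were below the wild type in this sum, and 3M was slightly above it. In bulk RNA, fewer cells that express a gene and less RNA per cell cannot be told apart.

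No member passed an adjusted p of 0.01 for rescue against wild type, in edgeR or in DESeq2. The paper's methods give that threshold for DESeq2. After the low-count filter 27 of the 40 members remained, and 0 of them reached an adjusted p of 0.01, or of 0.05, in the edgeR quasi-likelihood test with Benjamini-Hochberg adjustment over 13267 genes. The background was also near 0, since 0.00754% of all genes passed at 0.01, which is 1 gene (Ddx3y, no member, named after its value was seen). Morc3, the gene put back into the clones, had a log2 fold change of 1.87 (SE 0.17) and an adjusted p of 0.108 in edgeR. It was thus not called by edgeR, although DESeq2 called it (adjusted p = 6.16e-23). A lack of calls in edgeR therefore cannot be read as a lack of change. DESeq2 called 0.67% of the 9546 genes to which it gave an adjusted p, and 0 of the 10 members among them. At an unadjusted p under 0.05, 5 of 27 members were lower in rescue (18.5%), against 4.42% of all genes, and 0 were higher, against 5.92%. These 5 were Tdrd5, Zcwpw1, Mov10l1, Sohlh2 and Dmc1. Over the 38 members with any read, DESeq2 gave 1 lower at an unadjusted p under 0.05, Tdrd5, against 1.18% of all genes, and 0 higher, against 3.21%.

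More of the tested members lay below the wild type than above it in each clone, and most did so in 3C. All 3 clones lay below the wild type for 13 of 27 members (48.1%), against 28.4% of all genes, and above it for 3 (11.1%), against 28.7%, while 11 overlapped. Over the 38 members with any read, 15 lay below (39.5%, against 27.7% of such genes) and 6 above (15.8%, against 24.7%). The median log2 fold change of the tested members was −0.13, beside 0.0051 over all genes tested, and their values ran from −1.37 to 0.72. Taken clone by clone against the wild type, the members' median difference in log2 CPM was −0.45 in 3C, −0.26 in 3D and −0.23 in 3M. Members below the wild type numbered 21 of 27 in 3C (77.8%), 18 in 3D (66.7%) and 17 in 3M (63.0%), against 49.8%, 49.4% and 50.4% of all genes. Leaving out 3M moved the median log2 fold change to −0.37 and leaving out 3C moved it to −0.05.

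**Figure D2:**
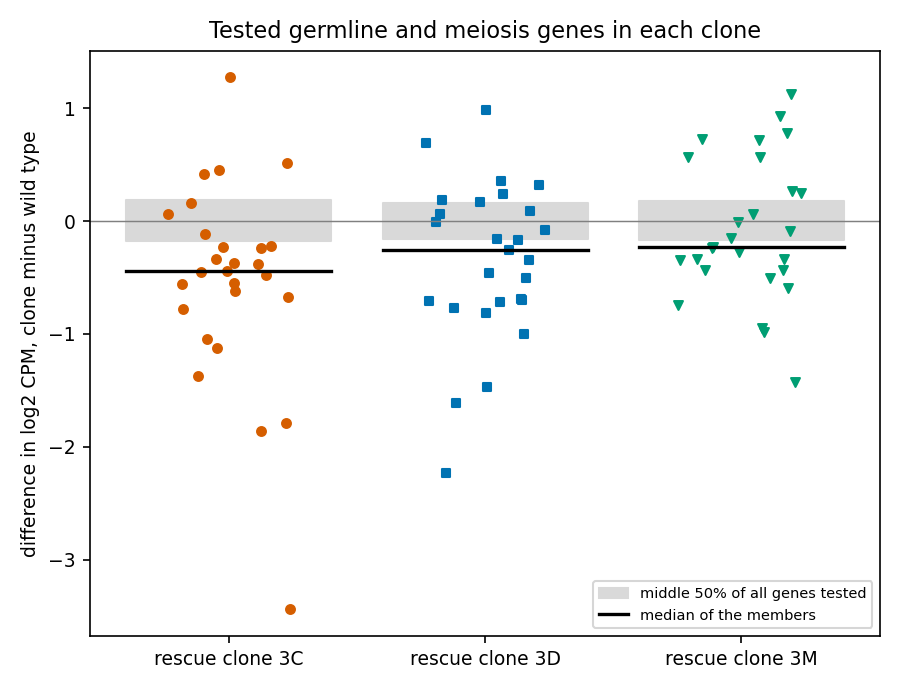
Difference in log2 CPM from the wild type (prior count 2) for the 27 tested members in each clone, with one symbol per member. The black line is the members' median, −0.45 in 3C, −0.26 in 3D and −0.23 in 3M. The grey band is the middle 50% of all genes tested. Below and above the band lie 20 and 4 members in 3C, 16 and 7 in 3D, and 14 and 9 in 3M. Members with few reads also spread by counting error.

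The clones differed from one another in the order of these genes. 3C was the lowest of the clones in 15 of 27 members (55.6%, against 33.9% of all genes), and 3M was the highest in 15 (55.6%, against 29.5%). Rpl10l and Tdrd12 carried the widest spreads among the higher members, as described with their groups.

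Among the germ cell regulators, 2 of the 5 tested genes were below the wild type in every clone, 1 was above, and 2 overlapped, where 28.4% of all genes were below and 28.7% above. Sohlh2, a transcription factor of early germ cell differentiation, was at 2.88 CPM in the wild type and at 0.742, 0.962 and 1.87 CPM in 3C, 3D and 3M. All clones were below the wild type, 3M the least. The clones averaged 1.19 ± 0.599 CPM (SD, n = 3), with a log2 fold change of −1.24 (SE 0.46) and an adjusted p of 0.451 in edgeR. Ddx4, the Vasa RNA helicase of the nuage, was at 20.03 CPM in the wild type and at 28.6, 22.9 and 29.8 CPM in 3C, 3D and 3M. All clones were above the wild type, with 3D closest to it. The mean over clones was 27.1 ± 3.71 CPM (SD, n = 3), with a log2 fold change of 0.44 (SE 0.18) and an adjusted p of 0.489 in edgeR, or 0.55 and 0.0315 without 3D.

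Ddx4 lies on chromosome 13, where the median difference over 512 tested genes was 0.48 in 3C, 0.03 in 3D and 0.48 in 3M. Ddx4 itself had 0.51, 0.19 and 0.57. With each clone's chromosome median taken off, the Ddx4 log2 fold change was 0.10 (adjusted p = 0.826 in edgeR). The part of the chromosome in the Ddx4 level was not tested.

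Mybl1, the transcription factor that drives the pachytene programme in testis, was at 25.3 CPM in the wild type and at 23.4, 25.2 and 23.9 CPM in the clones, nearly level in all 4 libraries. Dppa3, which protects maternal methylation in the early embryo and is expressed in a fraction of ES cells, was at 3.41 CPM in the wild type and at 1.93, 3.23 and 5.94 CPM in 3C, 3D and 3M. The Dppa3 clones lay on both sides of the wild type and spanned 3.08-fold. Dazl, an RNA-binding protein that licenses germ cell fate, had 5 reads in the wild type and 11, 0 and 8 in 3C, 3D and 3M. The 0 in 3D allows up to 0.206 CPM by a limit of 3 reads, and the wild-type level was 0.262 CPM. Taf7l, a germ cell TFIID subunit, and Brdt, a testis bromodomain protein, had between 1 and 6 reads in each library.

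In the piRNA and nuage group, 4 of the 10 tested genes were below the wild type in every clone, 1 was above, and 5 overlapped. Over all genes, 28.4% were below and 28.7% above. The 4 lower genes were Tdrd1, Tdrd5, Tdrd12 and Mov10l1. Tdrd5, a Tudor protein of the nuage, was at 7.76 CPM in the wild type and at 3.49, 4.67 and 4.58 CPM in 3C, 3D and 3M. The 3 clones lay close together, and the 95% Poisson interval of each, which covers counting error only, ended at or below 5.92 CPM, under the wild-type interval of 6.56 to 9.12 CPM. The clone mean was 4.25 ± 0.661 CPM (SD, n = 3), with a log2 fold change of −0.86 (SE 0.23) and an adjusted p of 0.322 in edgeR. It was the only member with an unadjusted p under 0.05 in the reported fit and under all 12 alternatives.

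Mov10l1, the RNA helicase that starts piRNA production, was at 7.03 CPM in the wild type and at 3.34, 4.26 and 5.16 CPM in 3C, 3D and 3M. The clone mean was 4.25 ± 0.913 CPM (SD, n = 3), with a log2 fold change of −0.71 (SE 0.26) and an adjusted p of 0.451 in edgeR. Every clone was again below the wild type, and 3C was lowest.

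Tdrd12, a Tudor-domain helicase of secondary piRNA production, was at 34.5 CPM in the wild type and at 9.42, 25.02 and 27.4 CPM in 3C, 3D and 3M. 3C stood apart, with 127 reads against 364 and 424 in the other clones. Piwil2, the PIWI protein MILI, was at 41.1 CPM in the wild type and at 31.7, 46.3 and 35.0 CPM in 3C, 3D and 3M. The Piwil2 clones lay on both sides of the wild type. Their mean was 37.7 ± 7.68 CPM (SD, n = 3), with a log2 fold change of −0.13 (SE 0.21) and an adjusted p of 0.868 in edgeR. Piwil2 lies on chromosome 14, whose median over 464 genes was 0.34, 0.34 and 0.35 above the wild type in the clones, and relative to that median its log2 fold change was −0.47 (adjusted p = 0.568 in edgeR).

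Tex19.1, a mammal-specific protein that restrains retrotransposons in germ cells, was at 9.12 CPM in the wild type and at 12.2, 9.69 and 17.5 CPM in 3C, 3D and 3M. All clones were above the wild type, although 3D by little, and reads shared with its paralog Tex19.2 would be lost, so the level is uncertain. Stk31, a testis kinase-like protein with a Tudor domain, was at 3.88 CPM in the wild type and at 2.74, 4.605 and 6.45 CPM in 3C, 3D and 3M. Tdrd1, a Tudor scaffold of the nuage, was at 3.30 CPM in the wild type and at 2.82, 1.99 and 2.78 CPM in the clones. Stk31 thus overlapped the wild type, and Tdrd1 was below it in 3 of 3 clones.

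Mael, a nuage protein needed for transposon silencing, had 21 reads in the wild type and 21, 21 and 17 in the clones. Tdrd7 had 10 reads in the wild type and 4, 10 and 13 in 3C, 3D and 3M, and Tdrd9, a helicase partner of MIWI2, had 8 and then 6, 11 and 4. These 3 members overlapped between wild type and clones. Tdrd6, a scaffold of the chromatoid body, had between 1 and 4 reads a library, and Asz1, a mitochondrial nuage protein, and Fkbp6, a co-chaperone of piRNA loading, had 1 read each, in 3C alone.

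**Figure D3:**
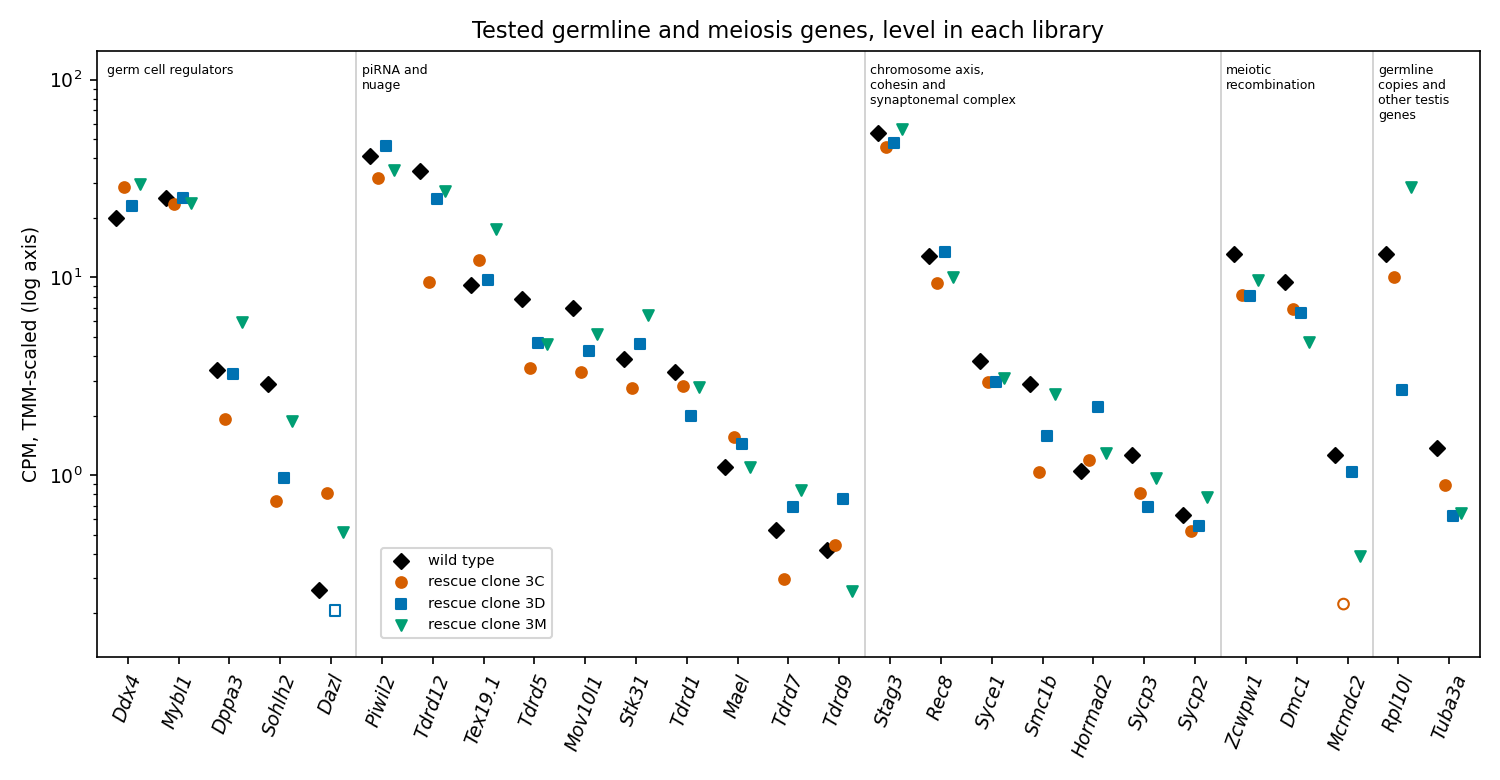
Level (TMM-scaled CPM, log axis) of the 27 tested members in each of the 4 libraries, ordered by role and by mean level. Diamonds are the wild type and the other symbols are the 3 clones, open symbols mark 0 reads drawn at the limit of 3 reads, and the spread between clones is widest for Rpl10l, at 2.68 to 28.7 CPM.

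Among genes of the chromosome axis, cohesin and synaptonemal complex, 3 of the 7 tested were below the wild type in every clone. Of the rest, 1 was above and 3 overlapped, where 28.4% of all genes were below and 28.7% above. The group held the highest member. Stag3, the meiotic cohesin subunit, was at 53.8 CPM in the wild type and at 45.6, 47.9 and 56.3 CPM in 3C, 3D and 3M. Clones lay on both sides of the wild type. The clone mean was 49.96 ± 5.65 CPM (SD, n = 3), with a log2 fold change of −0.11 (SE 0.14) and an adjusted p of 0.820 in edgeR.

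Rec8, the meiotic kleisin, was at 12.8 CPM in the wild type and at 9.35, 13.4 and 10.1 CPM in 3C, 3D and 3M. It overlapped as well. On chromosome 14, like Piwil2, it had a log2 fold change of −0.22 (SE 0.23), and of −0.57 relative to the chromosome's median (adjusted p = 0.540 in edgeR). Smc1b, the meiotic SMC subunit, was at 2.88 CPM in the wild type and at 1.04, 1.58 and 2.58 CPM in 3C, 3D and 3M. Of its reads, 15.9% lay on the opposite strand, against 0.0622% for Stag3 and 2.44% for Rec8, and its clones were all below the wild type.

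Syce1, a central element protein of the synaptonemal complex, was at 3.78 CPM in the wild type and at 2.97, 2.96 and 3.10 CPM in the clones, which were all lower by a similar amount. Sycp3, the axial element protein, had 24 reads in the wild type and 11, 10 and 15 in the clones, or 1.26 CPM and 0.816, 0.687 and 0.968 CPM. Its opposite strand, where Chpt1 overlaps it, held 10, 12, 7 and 11 reads in the same libraries. Sycp2, its partner in the axis, had 12 reads in the wild type and 7, 8 and 12 in the clones and did not separate the groups.

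Hormad2, a HORMA-domain axis protein, had 20 reads in the wild type and 16, 32 and 20 in 3C, 3D and 3M, which in CPM placed all clones above the wild type. Its level was 1.05 CPM in the wild type and 1.19, 2.20 and 1.29 CPM in the clones. Hormad1 had 8 reads in the wild type and 8, 5 and 10 in the clones. Sycp1, the transverse filament protein, had 9 reads in the wild type and 9, 5 and 6 in the clones on its own strand, but 201, 115, 143 and 121 on the opposite strand, where 3 pseudogenes are annotated within it. An unstranded count of Sycp1 would thus be 95.2% reads from the other strand.

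Meiotic recombination genes had 3 testable members, and all 3 were lower in every clone, as were 28.4% of all genes. Zcwpw1, a histone reader that acts with PRDM9, was at 13.1 CPM in the wild type and at 8.16, 8.04 and 9.68 CPM in 3C, 3D and 3M. Each clone's 95% Poisson interval ended at or below 11.4 CPM, under the wild-type interval of 11.5 to 14.8 CPM. On average the clones were at 8.63 ± 0.915 CPM (SD, n = 3), with a log2 fold change of −0.60 (SE 0.17) and an adjusted p of 0.355 in edgeR.

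Dmc1, the meiotic strand-exchange recombinase, was at 9.44 CPM in the wild type and at 6.90, 6.598 and 4.71 CPM in 3C, 3D and 3M. Here 3M was the lowest clone, as for 3 of 27 members in all. The mean over clones was 6.07 ± 1.19 CPM (SD, n = 3), with a log2 fold change of −0.64 (SE 0.24) and an adjusted p of 0.459 in edgeR.

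Mcmdc2, an MCM-domain protein of recombination, had 24 reads in the wild type and 0, 15 and 6 in 3C, 3D and 3M. The 0 in 3C is at least 5.65-fold lower than the wild type by a limit of 3 reads, while 3D was close to it. The clones averaged 0.473 ± 0.521 CPM (SD, n = 3) against 1.26 CPM, with a log2 fold change of −1.37 (SE 0.91) and an adjusted p of 0.637 in edgeR. The log2 fold change was −0.84 without 3C and −2.56 without 3D (adjusted p = 0.713 and 0.0665 in edgeR), and −0.29 when both strands were counted. Snhg6, transcribed from the opposite strand of the same place, had 643 reads in the wild type and 407, 523 and 528 in the clones, and Mcmdc2 had 80, 43, 57 and 74 reads counted on the opposite strand. Spo11, the enzyme that makes meiotic breaks, had 0 reads in all 4 libraries, which allows at most 0.223 CPM in any one. Meiob and Mei1, both of break repair or formation, had between 1 and 5 reads in each library.

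Among the germline copies, Rpl10l differed most between clones. Rpl10l, a retrotransposed copy of the ribosomal protein gene Rpl10 that serves in spermatocytes, was at 13.1 CPM in the wild type and at 10.0, 2.68 and 28.7 CPM in 3C, 3D and 3M. The highest clone was 10.7-fold above the lowest, on 39 reads in 3D and 444 in 3M, and the wild type lay between them. Reads that match Rpl10 equally well were not counted, so the level is uncertain. Tuba3a, a testis tubulin with a near-identical copy in Tuba3b, had 26 reads in the wild type and 12, 9 and 10 in the clones, all below the wild type as CPM, and Tuba3b had 0 reads in all 4. Tex101, a germ cell surface protein, and Slc25a31, the germline ADP/ATP carrier, had between 1 and 4 reads.

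**Figure D4:**
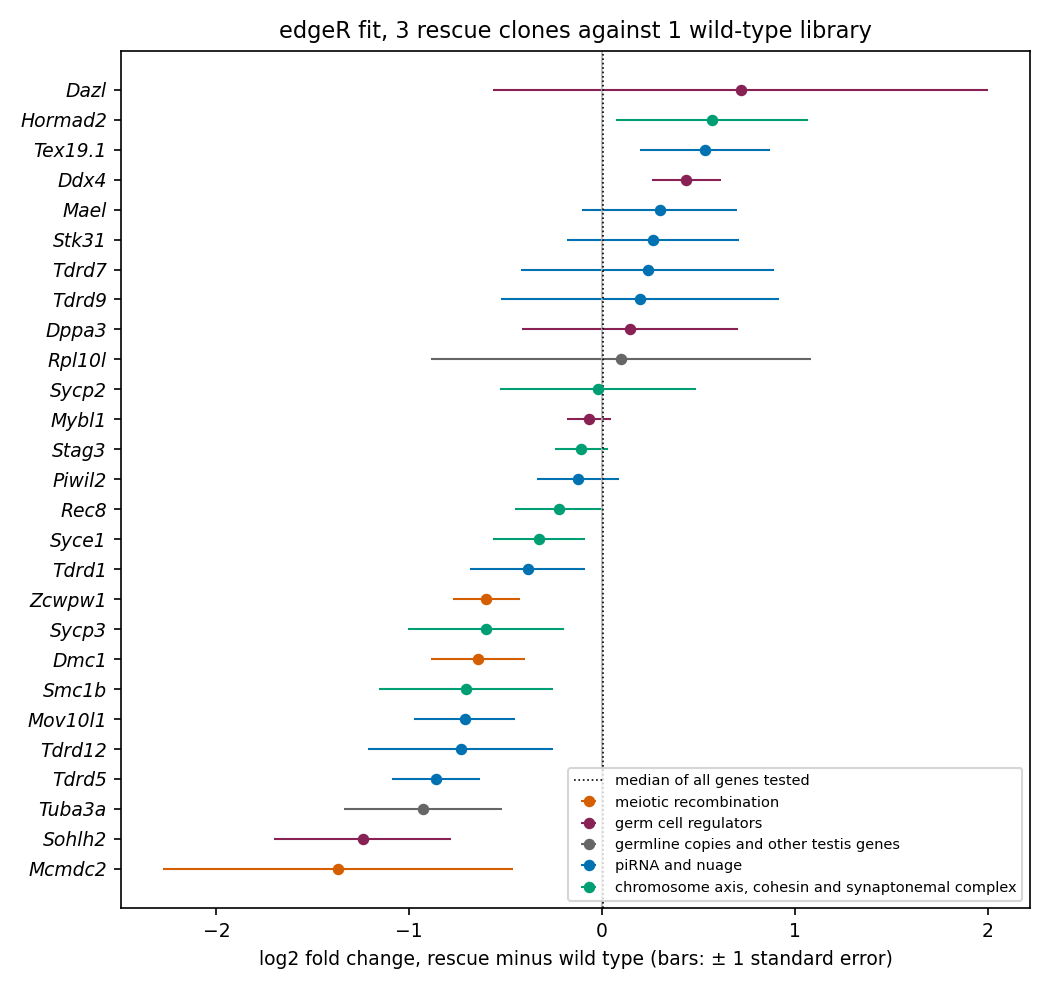
Log2 fold change of rescue over wild type in edgeR with 1 standard error on each side, for the 27 tested members, coloured by role. The dotted line is the median of all genes tested, 10 members lie above 0 and 17 below, and no member passed an adjusted p of 0.05.

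Other genes of the same pathways were taken from lists of textbook members. Of 17 other piRNA genes 12 were tested, 0 were called by edgeR or DESeq2, and the median log2 fold change was −0.14. Tdrkh, a Tudor partner of PIWI proteins, was at 3.25 CPM in the wild type and at 1.78, 1.58 and 1.29 CPM in the clones, and Nanos3 was at 3.20 CPM and then at 5.34, 3.71 and 6.003 CPM. Rnf17 was at 90.8 CPM in the wild type and at 107, 150 and 138 CPM in the clones, and Mov10, the somatic paralog of Mov10l1, at 204 CPM and then at 244, 180 and 254 CPM. Tdrkh was thus lower, Nanos3 and Rnf17 were higher and Mov10 overlapped. At an unadjusted p under 0.05 the list held 1 gene lower, Tdrkh, and 1 higher, Rnf17. Rnf17 had a log2 fold change of 0.54 and lies on chromosome 14, like Piwil2. That chromosome's median was 0.34, 0.34 and 0.35 above the wild type in the clones.

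Of 35 other meiosis genes 34 were in the tables and 26 were tested, with 0 called by edgeR or DESeq2 and a median log2 fold change of −0.05. Without 3D, edgeR called Trip13 (adjusted p = 0.00827), with a log2 fold change of 0.46. Trip13 lies on chromosome 13, like Ddx4, where the median difference was 0.48 in 3C and 0.48 in 3M. The part of the chromosome in its level was not tested. At an unadjusted p under 0.05 the list held 2 genes higher, Rad21 and Hsf2bp, and 0 lower. Hfm1, a crossover helicase, was at 3.57 CPM in the wild type and at 2.003, 2.89 and 1.10 CPM in the clones, all below. Terb1, listed as Ccdc79, had 15 reads in the wild type and 9, 6 and 8 in the clones. Rad21 and Smc3, cohesin subunits of every dividing cell, were at 402 and 263 CPM in the wild type and had log2 fold changes of 0.21 (SE 0.07) and 0.09 (SE 0.06).

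Genes of primordial germ cells were all tested, 12 of 12, with 0 called by edgeR or DESeq2 and a median log2 fold change of 0.04. Ifitm3 was at 59.5 CPM in the wild type and at 74.0, 111 and 113 CPM in the clones, the 1 gene of the list with an unadjusted p under 0.05 (adjusted p = 0.429 in edgeR). Dppa5a, at 538 CPM in the wild type, had a log2 fold change of −0.01. The 12 spermatid genes had fewer than 10 reads in every library and 8 of them, Prm1, Prm2 and Tnp1 among them, had none. Of 12 oocyte genes 2 were tested, Zp3 and Gdf9, and both overlapped between wild type and clones.

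The list of repressors of germline genes in ES cells was tested whole, 23 of 23, with 0 called by edgeR, 1 gene lower (Dnmt3a) and 1 higher (Max) at an unadjusted p under 0.05, and a median log2 fold change of 0.01. Dnmt3a, a de novo DNA methyltransferase, was at 167 CPM in the wild type and at 78.3, 63.3 and 62.4 CPM in 3C, 3D and 3M. All clones were below, with a log2 fold change of −1.30 (SE 0.13) and an adjusted p of 0.108 in edgeR. DESeq2 called it (adjusted p = 1.36e-09), as did edgeR without 3D (adjusted p = 4.69e-05). Dnmt3b was at 232 CPM in the wild type and at 196, 140 and 180 CPM in the clones, and Dnmt3l, their cofactor, counted with the primordial germ cell genes, at 331 CPM and then at 235, 95.5 and 161 CPM. All 3 of these Dnmt3 genes were lower in 3 of 3 clones, Dnmt3l with an adjusted p of 0.489 in edgeR, or 0.0066 without 3D. Dnmt3b had a log2 fold change of −0.43 (SE 0.18) and was not called by edgeR or DESeq2. Of the 23 repressors, 8 were below the wild type in every clone, 8 were above, and 7 overlapped. Over all genes, 28.4% were below and 28.7% above. Uhrf1, which recruits the maintenance methyltransferase, and Usp7 each had a log2 fold change of 0.10. The part of these genes in the members' levels was not tested.

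Markers of other cell types were also followed. The 9 primitive endoderm markers summed to 175 CPM in the wild type and to between 147 and 160 CPM in the clones, with 6 tested and 0 called by edgeR or DESeq2. Their log2 fold changes included 0.82 for Sox7, −0.66 for Dab2, −0.09 for Lamb1 and −0.45 for Col4a1. The 10 mesoderm and neuroectoderm markers summed to 121 CPM and to between 91.3 and 117 CPM, with 5 tested, 0 called by edgeR and 1 by DESeq2 (Tubb3), Neurog2 at 0 reads in every library, and T, Mesp1 and Pax6 under 10 reads. Eomes had a log2 fold change of 0.79 and Nes one of 0.32. Tubb3 was the lone marker there with an unadjusted p under 0.05, at 73.8 CPM in the wild type and 49.3, 40.8 and 40.5 CPM in the clones. Its adjusted p was 0.191 in edgeR, 0.00263 in edgeR without 3D and 0.00967 in DESeq2. The 8 fibroblast markers summed to 32.9 CPM and to between 20.4 and 45.0 CPM, most of it Thy1, with 2 tested, 0 called by edgeR or DESeq2, Col1a1 at 11 to 22 reads, and Col3a1, Lum, Dcn and Twist2 at 0 reads in every library. Both the endoderm and the mesoderm and neuroectoderm sums were lower in all clones, but most tested genes in them overlapped the wild type. Of the 6 tested endoderm markers, 1 was below the wild type in every clone, 1 above, and 4 overlapped. Of the 5 tested mesoderm and neuroectoderm markers, 2 were below, Tubb3 among them, 0 above, and 3 overlapped, Nes among them. Over all genes, 28.4% were below and 28.7% above. The part of these markers in the members' levels was not tested.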

How the data were processed

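The members and the other gene lists were chosen with earlier results of these data known. Per the labels, the authors aligned reads with STAR to mm10, and the authors deposited raw counts per gene of read pairs that mapped once, 1 table a library, neither normalized nor pooled. Their gene annotation was not given in the sources used here. The reverse-strand column was used, since the library kit is directional, and its total was far above that of the forward column, which came to 1.26% to 1.31% of it. Rows that name no gene, between 47.3% and 54.9% of read pairs, stayed out of library sizes and tests.

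The counts were compared by the quasi-likelihood test of edgeR 4.0.16, run under R 4.3.3 (glmQLFit, glmQLFTest, TMM scaling, filterByExpr, Benjamini-Hochberg adjustment over 13267 genes, threshold 0.01), after a test on simulated data. Per-clone differences in log2 CPM used a prior count of 2. DESeq2 1.42.0 and limma-voom (limma 3.58.1) were alternatives among 12. Values are printed per library for members with 10 or more counts in at least 1 library. Fold changes are printed for tested members with an unadjusted p under 0.05 or a log2 fold change of at least 1 in size, and for the 3 of highest mean CPM. Rec8, Rpl10l, Hsf2bp, Trip13 and Max were singled out after their values were seen. From other lists, the 2 genes of largest change and the 2 of highest mean CPM were named. Positions and promoter windows came from RefSeq on GRCm38.p6, and exon lengths and overlapping genes came from the GENCODE annotation. Intervals and limits for 0 reads cover counting error only.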

Additional observations from a re-analysis of the deposited data

How the results depend on the processing

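Of 521 values recomputed under 12 alternatives, 490 stayed (a fold change in direction and side of the threshold, whatever its size, a count within 1.5 times and the median within 0.116), 23 moved and 8 changed sign. Fold changes that stayed could still shrink, as for Ddx4, at 0.10 with chromosome medians taken off, and Mcmdc2, at −0.29 with both strands counted. No member passed an adjusted p of 0.01 in any of them. Over all genes, 0 were called with at least 10 counts required in every library, with limma-voom or with edgeR's legacy option, 64 with DESeq2, and between 0 and 420 when a clone was left out, with 420 without 3D and 0 without 3M. Members lower at an unadjusted p under 0.05 numbered 1 with DESeq2, 3 with the legacy option and between 4 and 8 when a clone was left out, and members higher numbered between 0 and 2, with 8 lower and 2 higher without 3D. The share of all genes at that p was then 7.44% lower and 11.2% higher. The share lower was 1.18% with DESeq2, 3.98% with the legacy option, 4.20% without 3C and 2.18% without 3M. Members with every clone above the wild type numbered 6 with no filter (24.7% of all genes) and between 5 and 5 when a clone was left out (34.0% to 37.8% of all genes). The members' median log2 fold change was −0.30 with chromosome medians taken off and between −0.37 and −0.047 when a clone was left out.

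The sign turned for Dazl (−0.21) and Rpl10l (−0.48) with limma-voom. With a clone left out, log2 fold changes ran from −0.39 to 0.44 for Dppa3, from −0.070 to 0.54 for Tdrd7, from −0.069 to 0.51 for Stk31 and from −1.06 to 0.59 for Rpl10l, each negative without 3M only, and from 0.058 to 0.080 for Sycp2 without 3D or 3C, which was too low to test without 3M. The cause was not tested. Scaling and test alternatives give no value for the counts of clones below or above the wild type. No paired analysis was possible because the wild type is 1 library. With 13 of 40 members too low to test, a difference in them was not detectable at this depth.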
